A study of Homo sapiens with 8 samples.

Results

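The HLA class II pathway genes listed for the human beta-cell line EndoC-βH5 were chosen by name, as the rows whose symbol begins with HLA-D or equals CD74, CIITA, RFX5, RFXAP or RFXANK. This gave 6 genes of the 16525 in the deposited table: the transactivator CIITA, the 3 subunits of its DNA-binding partner (RFX5, RFXAP and RFXANK), the invariant chain CD74, and HLA-DMA. A reference list of gene names holds 25 names that the rule covers, of which 20 begin with HLA-D. The other 19, which include the chains of HLA-DR, HLA-DP and HLA-DQ and HLA-DMB, were not analysed here. Sequenced RNA came from 4 cultures left without cytokines (control) and 4 that received a mix for 48 h. The mix held IL-1β at 50 U/mL, with IFNγ and TNFα each at 1000 U/mL. EndoC-βH5 cells come from fetal pancreatic rudiments that were immortalised with the SV40 large T antigen and telomerase, transgenes that were later removed, and all 8 libraries share this origin. The labels do not say whether the cultures of a group were independent, so the p-values measure the spread between these libraries, which may be technical. The column names begin alike for 1 control and 1 cytokine library at a time, which gives the pairs A, B, C and D. The names of pairs A and B end in 21 and those of pairs C and D in 22, and these name endings are called series 21 and series 22, without a stated meaning. Libraries A and B were the most alike within each condition, and whether they came from independent cultures was not tested. If they did not, the p-values overstate the replication.

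MHC class II molecules present peptides from the endosomal pathway to CD4+ T cells and are mainly found on professional antigen-presenting cells, but IFNγ can induce them in other cell types. The trimeric RFX complex binds the X box of class II promoters, the factor NF-Y binds the Y box, and CIITA is recruited to this platform without binding DNA itself. The invariant chain CD74 occupies the groove of a new class II molecule and directs it to endosomes. There cathepsins trim CD74 to the CLIP peptide, and HLA-DM, a dimer of HLA-DMA and HLA-DMB, exchanges CLIP for other peptides. Aberrant class II expression in beta cells has long been discussed in type 1 diabetes.

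CD74 and HLA-DMA both rose with cytokines, as described further on, and their RefSeq promoter sequences (build GRCh38.p14, minus strand) are shown because both carry letters of the X and Y boxes. The 250 bases before the RefSeq start are given 5′ to 3′, at chr5:150412911-150413160 for CD74 and chr6:32953098-32953347 for HLA-DMA. In GENCODE 29, 19 of these bases of CD74 lie in an annotated exon. For HLA-DMA all 250 lie within the longer annotated gene and 25 in an exon. Capitals mark AGNNAC followed after 3 bases by TGATG (X), and ATTGG on either strand (Y).
CD74: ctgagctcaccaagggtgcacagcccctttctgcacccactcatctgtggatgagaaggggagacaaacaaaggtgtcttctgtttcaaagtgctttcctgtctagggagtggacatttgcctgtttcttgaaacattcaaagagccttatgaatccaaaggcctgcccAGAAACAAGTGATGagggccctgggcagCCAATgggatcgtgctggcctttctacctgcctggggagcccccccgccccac
HLA-DMA: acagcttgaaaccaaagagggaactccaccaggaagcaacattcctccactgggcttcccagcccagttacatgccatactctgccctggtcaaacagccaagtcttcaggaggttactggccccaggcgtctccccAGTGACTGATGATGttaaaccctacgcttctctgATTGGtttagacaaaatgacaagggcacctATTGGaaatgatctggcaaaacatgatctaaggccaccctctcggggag

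The X letters began at position -81 of CD74 and -113 of HLA-DMA, counted from the RefSeq start. CD74 had 1 Y match, at -53 on the opposite strand, and HLA-DMA had 2, at -79 and -49. The gap between the X match and the next Y match was 14 bases in CD74 and 20 bases in HLA-DMA. The X letters were written after these windows had been read, so their presence in both is no finding. Among 35116 RefSeq windows of 300 bases (250 before and 50 after a start), 63 (0.179%) held the X letters on either strand, 12155 (34.6%) held ATTGG and 20 (0.0570%) held both. Neither RFX5, RFXAP nor RFXANK had the X letters in a window, and 1 of the windows of RFX5 had 2 Y matches. No window of CIITA was matched. Of 19 listed genes whose window held the X letters, 17 were no class II genes. By the rule given below, 1 of these 17 was called higher and 1 lower, against 9.52% and 17.5% of all genes.

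Reads on listed genes numbered 36956294 to 40117636 in control and 36577438 to 39348935 in cytokine libraries, and every value was a whole number of reads. Values are CPM, read counts scaled to a common library total. A gene was called higher or lower when limma on log2(CPM + 0.1), with Benjamini-Hochberg adjustment over 16525 genes, gave an adjusted p below 0.05 and a log2 fold change beyond 0.5 in size. By this rule 9.52% of all genes were called higher and 17.5% lower. Over all genes the log2 fold changes had a median of -0.17 on deposited CPM and -0.02 after TMM scaling. Of all called genes 35.2% were higher on deposited CPM and 52.7% after TMM scaling. All 11 beta-cell markers had a row, and they summed to 24189 to 36588 CPM in control and 29190 to 52863 CPM in cytokine libraries, sums made up mostly of CHGA and IAPP. Of these markers 0 were called higher and 6 lower, with MAFA (-2.27) and G6PC2 (-2.60) among the latter. Of 14 markers of antigen-presenting and other immune cells only CD14 and AIF1 had a row. Together they summed to 2.20 to 6.47 CPM in control and 1.64 to 2.62 CPM in cytokine libraries. Of 12 markers of other pancreatic cells 7 had a row, with sums of 568 to 2267 CPM in control and 658 to 2081 CPM in cytokine libraries. Most of these sums came from SST, at 355 to 2143 CPM in control and 468 to 1980 CPM in cytokine libraries. The beta-cell marker INS had 1158 to 2905 CPM in control and 1445 to 2172 CPM in cytokine libraries. In these bulk libraries more expressing cells and more RNA per cell cannot be told apart.

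Of the 6 class II genes 3 were called higher (CIITA, CD74 and HLA-DMA) and 0 lower, against 9.52% and 17.5% of all genes. The RFX subunits RFX5, RFXAP and RFXANK did not pass the test. The libraries of the 2 conditions did not overlap for 2 of the 6, CIITA and CD74, a share near the 32.8% of all genes. The count of 3 is a description, because the table lists genes above 0.5 CPM in at least 4 samples. CIITA was above 0.5 CPM in 0 of 4 control and 4 of 4 cytokine libraries, so it may have been listed through treated cells, and no p is given for its rise. Columns not used here also counted towards this filter, since 371 listed genes were above 0.5 CPM in fewer than 4 of the 8 libraries. HLA-DMA was above that level in 3 control and 4 cytokine libraries, and the other 4 genes were above it in all 8.

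**Figure D1:**
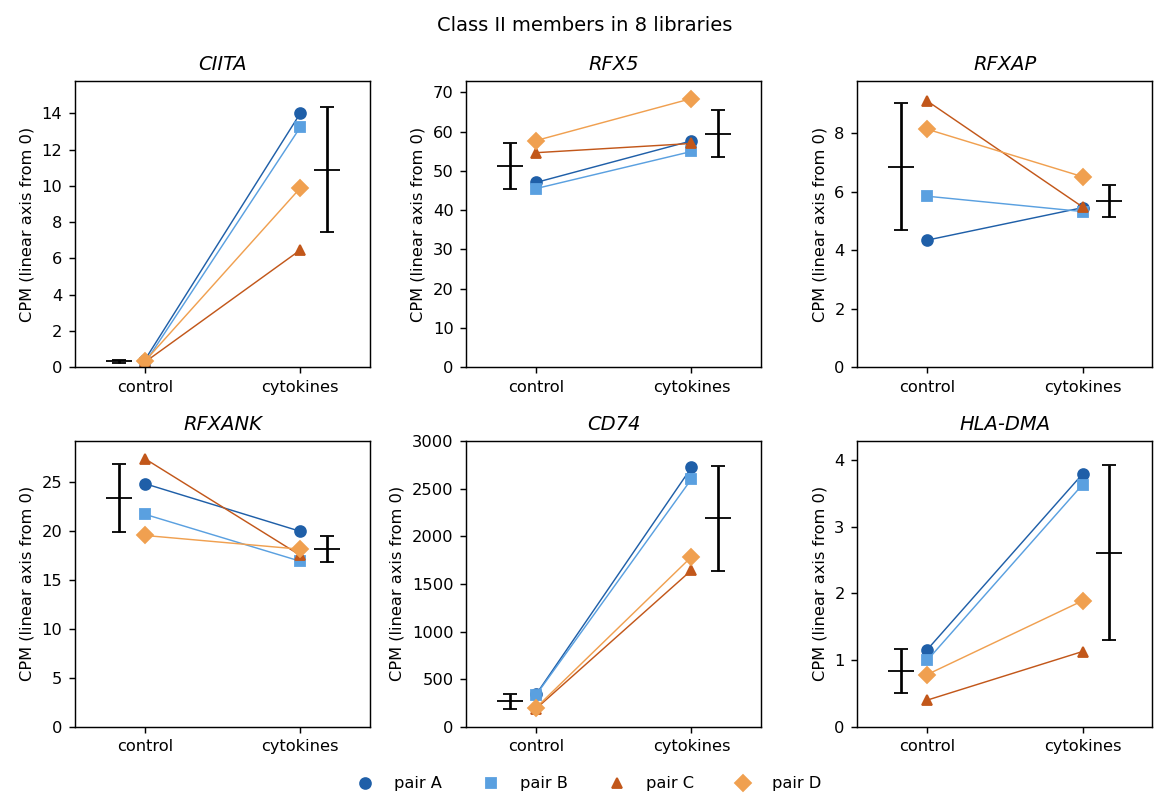
CPM of the 6 class II genes in control and cytokine libraries on linear axes that start at 0, with lines joining the libraries of 1 name pair and bars for the mean ± SD (n = 4). CIITA and CD74 separate fully by condition, HLA-DMA overlaps between control library A and cytokine library C, and the RFX subunits overlap between conditions.

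CIITA (ENSG00000179583), the master regulator of class II transcription, was close to silent in control cells. It lies on chromosome 16 (GRCh38, 10866222 to 10943021, plus strand). The control libraries A to D had 0.406, 0.233, 0.279 and 0.332 CPM, which were 19, 11, 14 and 17 reads. The cytokine libraries had 14.01, 13.2, 6.46 and 9.89 CPM. Every cytokine library exceeded every control library, and among the treated libraries A and B were highest and C was lowest. The log2 fold change was 4.69 (SE 0.28, higher in 4 of 4 pairs). The ratio of summed reads was 34.7, with an exact counting interval at 95% of 26.9 to 45.5 that covers counting error only. Because control reads were few, the log2 fold change depended on the pseudocount and was 3.13 with a pseudocount of 1.

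RFX5 (ENSG00000143390, chromosome 1, 151340640 to 151347357, minus strand), the DNA-binding subunit of the RFX complex, was well expressed in both conditions. Its control libraries A to D had 47.0, 45.5, 54.6 and 57.7 CPM. The cytokine libraries had 57.6, 54.9, 57.0 and 68.4 CPM. The groups overlapped, since control library D was above cytokine libraries A, B and C, although each cytokine library was above the control of its own pair. The log2 fold change was 0.22 (SE 0.12, limma adjusted p = 0.21). After TMM scaling it was 0.37 with an adjusted p of 0.019, still inside the fold threshold.

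RFXANK (ENSG00000064490, chromosome 19, 19192229 to 19201869, plus strand) is the ankyrin-repeat subunit of the complex. Its control libraries had 24.8, 21.7, 27.4 and 19.6 CPM, and its cytokine libraries 19.97, 16.9, 17.5 and 18.1 CPM. Each cytokine library was below its paired control, while cytokine library A was above control library D. The log2 fold change was -0.36 (SE 0.14, limma adjusted p = 0.072). RFXAP (ENSG00000133111, chromosome 13, 36819224 to 36829104, plus strand), the third subunit, had 4.34, 5.84, 9.10 and 8.13 CPM in control libraries. It had 5.45, 5.32, 5.48 and 6.51 CPM in cytokine libraries. The cytokine values lay inside the range of the controls, and the log2 fold change was -0.21 (SE 0.23, limma adjusted p = 0.52). Control libraries A and B were low and C and D high for RFXAP, and its log2 fold change was 0.09 within series 21 and -0.52 within series 22.

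CD74 (ENSG00000019582), the invariant chain, was abundant before treatment and rose further. It lies on chromosome 5 (150401637 to 150412929, minus strand). The control libraries A to D had 339, 334, 190 and 200 CPM. The cytokine libraries had 2725, 2604, 1645 and 1786 CPM. The lowest cytokine library was above the highest control, and in both conditions libraries A and B were above C and D. The log2 fold change was 3.06 (SE 0.25, limma adjusted p = 6.8e-06), an 8.34-fold rise. Within the 4 pairs the log2 fold changes were 3.01, 2.96, 3.11 and 3.15, so the rise varied little between pairs although the levels did.

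HLA-DMA (ENSG00000204257), the alpha chain of the peptide editor HLA-DM, was present at a low level. It lies on chromosome 6 (32948613 to 32969094, minus strand). The control libraries A to D had 1.15, 0.995, 0.398 and 0.782 CPM, which were 54, 47, 20 and 40 reads. The cytokine libraries had 3.79, 3.63, 1.13 and 1.89 CPM, which were 178, 170, 56 and 94 reads. Each cytokine library exceeded its paired control, but cytokine library C, at 1.13 CPM, was just below control library A. The log2 fold change was 1.47 (SE 0.42, limma adjusted p = 0.021, higher in 4 of 4 pairs). The call was lost when control library C was left out (1.19, limma adjusted p = 0.051). It was also lost without cytokine library A (1.24, limma adjusted p = 0.062) and without cytokine library B (1.26, limma adjusted p = 0.059). With a pseudocount of 1 the log2 fold change was 0.92. The exact 2-sided permutation test of mean CPM gave p = 0.0571 for HLA-DMA and p = 0.0286 for CD74, the smallest value that 4 against 4 libraries allow.

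**Figure D2:**
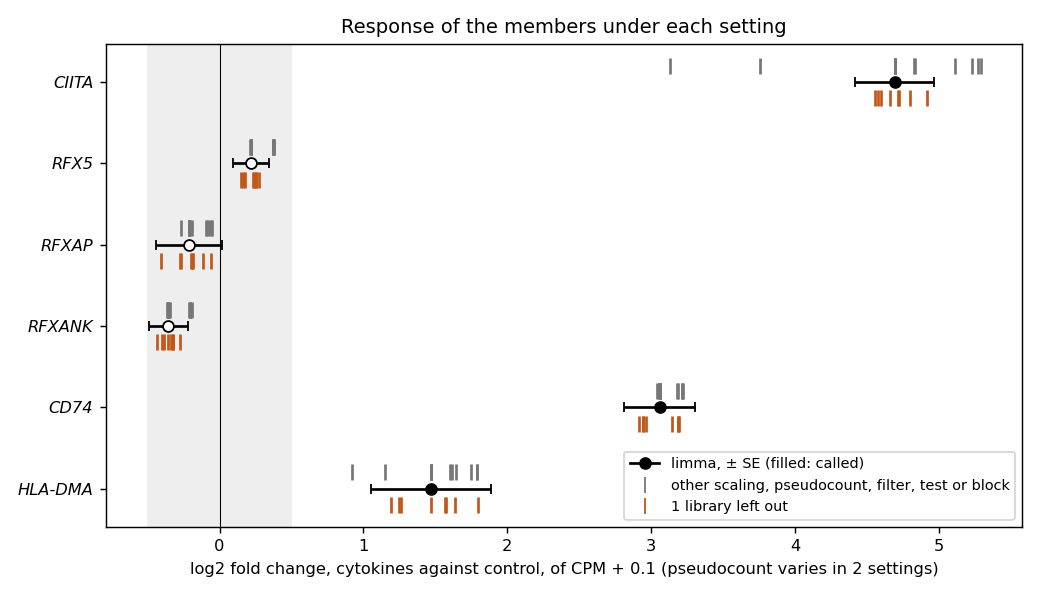
Log2 fold changes of the 6 class II genes with their SE (points), with other settings as grey ticks above and with 1 library left out as orange ticks below; the shaded band marks changes within 0.5. CIITA spreads from 3.13 to 5.29 with the pseudocount and test, CD74 stays between 2.92 and 3.22, and the RFX subunits stay inside the band.

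Levels were compared between genes per exon length as TPM, with exon lengths from GENCODE 29. In control libraries CD74 was highest at 310 TPM ± 54.0 (SD, n = 4). RFX5 followed at 43.4 TPM ± 10.99 and RFXANK at 35.8 TPM ± 7.42 (SD, n = 4), 2 neighbours whose libraries overlapped. RFXAP had 11.8 TPM ± 5.09, HLA-DMA 1.22 TPM ± 0.380 and CIITA 0.0577 TPM ± 0.0144 (SD, n = 4). With cytokines the order per exon length was the same. CD74 reached 2795 TPM ± 405 and CIITA 2.13 TPM ± 0.507 (SD, n = 4), next to HLA-DMA at 4.10 TPM ± 1.69 (SD, n = 4), whose libraries overlapped with those of CIITA. The RFX5 level per length was 770 times that of CIITA in control libraries (SD 171, n = 4) and 27.2 times in cytokine libraries (SD 10.4, n = 4). The exon length of CIITA used here, 20757 bases over all annotated transcripts, is long, and without division by length the ratio in cytokine libraries was 6.0 (SD 2.29, n = 4). The low place of CIITA with cytokines also rests on this length. Without division by length CIITA was above RFXAP and HLA-DMA in each cytokine library, at means of 10.9, 5.69 and 2.61 CPM. Exons of CIITA overlap a same-strand gene over 2378 bases and those of HLA-DMA over 174 bases. Exons of RFX5, RFXANK, CIITA and HLA-DMA also overlap genes on the opposite strand, over 451, 584, 2583 and 55 bases. How such reads were assigned was not tested.

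The genes whose profile over the 8 libraries was nearest to that of CD74 were PIFO, CSF1, ADM5, STARD5 and MUC13. Their Euclidean distances of centred log2(CPM + 0.1) ranged from 0.57 to 0.71, and their log2 fold changes from 2.67 to 3.47. CSF1 encodes the macrophage growth factor M-CSF and STARD5 a sterol-binding protein. The genes nearest to CIITA were RTP4, TYMP, IFITM3, PARP9 and OAS1, at distances of 0.75 to 0.97. The places of RTP4 and IFITM3 rest on the pseudocount of 0.1, because both had almost no control reads. RTP4, IFITM3, PARP9 and OAS1 are known interferon-stimulated genes, and TYMP encodes thymidine phosphorylase. RTP4 had no read in any control library and 134, 133, 111 and 123 reads in cytokine libraries A to D, at least 169-fold higher against a floor of 3 reads over the control group. IFITM3 had 3 reads over the control group and 557 over the cytokine group, a ratio of 188 (exact counting interval at 95% 63.9 to 913).

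The steps from the IFNγ receptor to CIITA include the kinases JAK1 and JAK2, the factors IRF1 and USF1 that act on the CIITA promoter, and inhibitors such as SOCS1. Of 12 genes of this route 8 were called higher, 0 lower and 4 not called (background 9.52% higher and 17.5% lower), with a median log2 fold change of 1.11 against -0.17 for all genes. IRF1 rose from 11.3, 12.8, 10.8 and 10.3 CPM in control libraries A to D to 651, 635, 977 and 755 CPM in cytokine libraries, a log2 fold change of 6.03 (SE 0.15, limma adjusted p = 8.7e-10). IRF1 was lowest in cytokine libraries A and B, whereas CIITA was highest there. JAK2 rose by 3.72 (SE 0.15) and the feedback inhibitor SOCS1 by 5.62 (SE 0.21) on the log2 scale. The receptor chains IFNGR1 (0.25, SE 0.11) and IFNGR2 (-0.06, SE 0.17) were not called, and neither were JAK1 (0.08, SE 0.16) and USF2 (-0.15, SE 0.12). The sign for USF2 turned under TMM scaling.

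The platform on which CIITA acts also holds the NF-Y subunits, CREB-family factors and chromatin coactivators. Of 16 such genes 3 were called higher, 1 lower and 12 not called (background 9.52% higher and 17.5% lower), with a median log2 fold change of 0.18. CREM, a CREB-family factor, had 3.70, 2.62, 5.36 and 3.77 CPM in control libraries A to D and 7.62, 6.54, 21.7 and 13.4 CPM in cytokine libraries. Its log2 fold change was 1.53 (SE 0.36, limma adjusted p = 0.0082). RFX2 (0.64, limma adjusted p = 0.040) and RFX3 (0.62, limma adjusted p = 0.046), relatives of RFX5 outside the class II complex, passed narrowly and their libraries overlapped between conditions. The call of RFX2 was lost without control library C or D or cytokine library A or B, and that of RFX3 without control library A or B or cytokine library A, C or D. Without cytokine library A, 1 gene of the list was called higher. The acetyltransferase KAT2B fell by 0.85 on the log2 scale (SE 0.17, limma adjusted p = 0.0031). The coactivators EP300 (0.29, SE 0.18) and SMARCA4 (-0.20, SE 0.10) were not called.

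Downstream of transcription, 20 of 22 genes for class II processing and trafficking had a row, and 5 were called higher, 2 lower and 13 not called (background 9.52% higher and 17.5% lower). Their median log2 fold change was 0.09. CTSS, the cathepsin known for the late cleavage of CD74, rose from 0.299, 0.487, 0.0796 and 0.156 CPM in control libraries A to D to 45.4, 43.5, 28.1 and 51.2 CPM in cytokine libraries, a log2 fold change of 7.0 (SE 0.35) that was 5.08 with a pseudocount of 1. Like CIITA, CTSS was above 0.5 CPM in 0 control and 4 cytokine libraries, and no p is given. CTSO, another cysteine cathepsin, rose by 2.90 on the log2 scale (SE 0.14, limma adjusted p = 1.1e-07). IFI30, the lysosomal thiol reductase GILT, had 0, 1, 0 and 2 reads in control libraries A to D and 20, 30, 31 and 45 reads in cytokine libraries. The ratio of its summed reads was 42.5 (exact counting interval at 95% 14.2 to 209). The log2 fold change of IFI30 was 2.68 (SE 0.32), and 0.69 with a pseudocount of 1. IFI30 was above 0.5 CPM in 0 control and 3 cytokine libraries, and no p is given. Both CTSS and IFI30 are among the 5 called higher, so that count is a description. The protease LGMN (0.87, SE 0.11) and SPPL2A (0.63, SE 0.12), which clears the remaining CD74 fragment from the membrane, were also called higher.

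CTSH, an aminopeptidase encoded in a type 1 diabetes risk locus, had 3.98, 3.598, 5.02 and 4.61 CPM in control libraries A to D and 1.81, 0.790, 1.61 and 2.37 CPM in cytokine libraries. It fell by 1.42 on the log2 scale (SE 0.30, limma adjusted p = 0.0047), and its libraries did not overlap. CTSF fell by 0.63 (SE 0.10, limma adjusted p = 0.00090), and was inside the fold threshold after TMM scaling, at -0.48. RAB7A, a GTPase of late endosomes, had a log2 fold change of 0.45 (SE 0.15, limma adjusted p = 0.041), inside the fold threshold, and 0.60 after TMM scaling. The cathepsin inhibitor CST3 was at 312 CPM ± 100.96 in control and 288 CPM ± 77.8 in cytokine libraries (SD, n = 4). Its log2 fold change of -0.10 (SE 0.26) turned sign under TMM scaling.

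**Figure D3:**
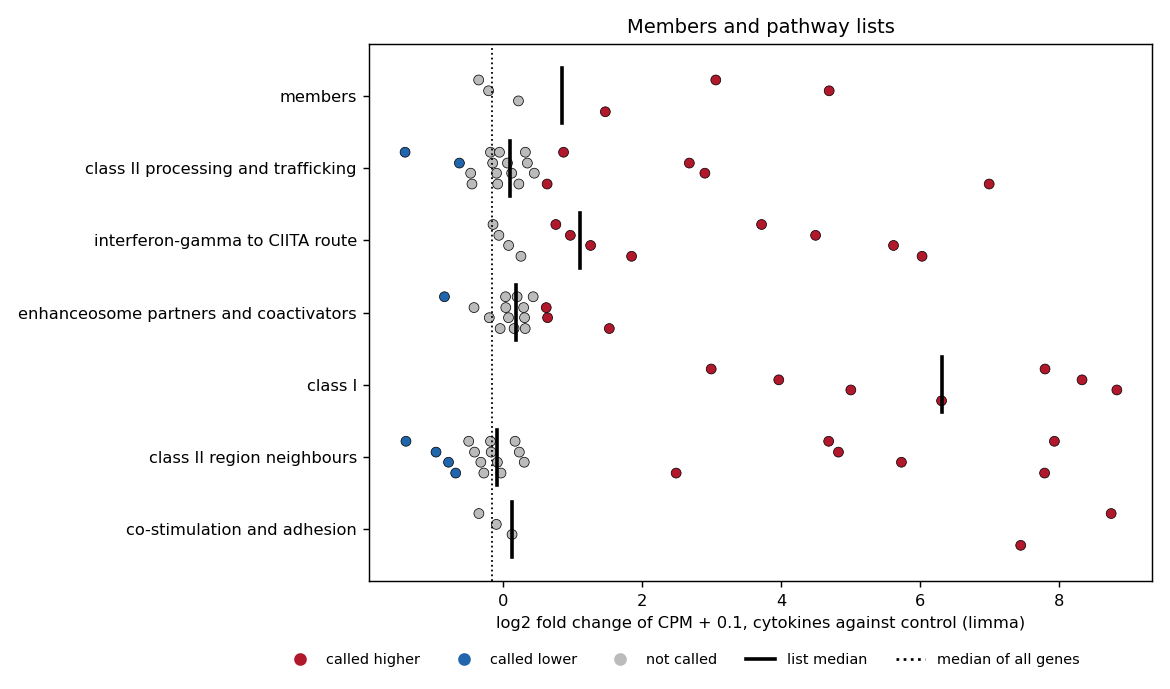
Log2 fold change of each class II gene and of each gene of 6 pathway lists (points, coloured by call), with the median of each list and of all 16525 genes. All 7 class I genes lie at or above 2.99, whereas 13 of 20 processing genes were not called. The same held for 12 of 16 genes of the enhanceosome list, which includes other RFX family factors.

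The class I pathway was compared at 3 matched steps: the NLR transactivators NLRC5 and CIITA, the partner chains B2M and CD74, and the peptide editors TAPBP and HLA-DMA. All 7 class I genes analysed were called higher, with a median log2 fold change of 6.31. The log2 fold changes of HLA-B (8.84, SE 0.36), HLA-F (8.33, SE 0.40, and down to 6.58 under other settings) and HLA-C (6.31, SE 0.20) were above those of the 3 class II genes that rose. NLRC5 went from 2.095, 3.98, 0.896 and 1.27 CPM in control libraries A to D to 451, 455, 339 and 435 CPM in cytokine libraries. Its log2 fold change of 7.80 exceeded that of CIITA by 3.11 (SE 0.52). The excess ranged from 1.48 to 4.30 over the 4 pairs. No p is given for it, because CIITA may have been listed through treated cells. With a pseudocount of 1 the log2 fold changes were 7.19 for NLRC5 and 3.13 for CIITA. B2M, with a log2 fold change of 3.97, exceeded CD74 by 0.91 (SE 0.27), and by 0.81 to 0.97 in the pairs. The exact permutation test gave p = 0.0286 for this excess, the smallest value that 4 against 4 libraries allow. This p is not adjusted, because adjustment over the 3 comparisons would use the p withheld for CIITA. TAPBP, with 2.49, exceeded HLA-DMA by 1.02 (SE 0.40), and by 0.63 to 1.35 in the pairs. This excess did not pass the exact permutation test (p = 0.0857, not adjusted). These tests were 2-sided and did not use the name pairs of libraries. They compared the log2 ratio of the 2 genes within each library, for gene pairs chosen with earlier results known.

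**Figure D4:**
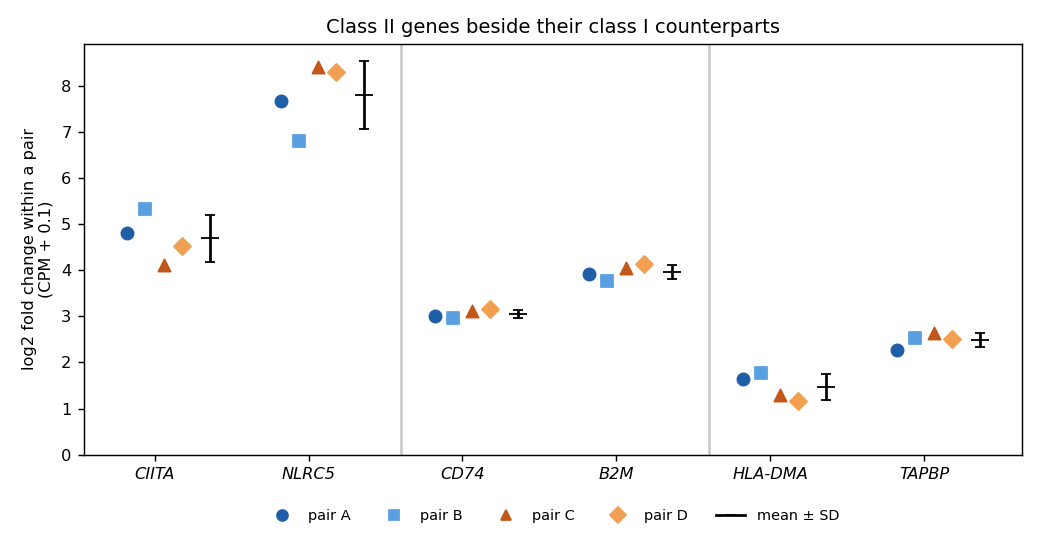
Log2 fold change within each name pair (points) for 3 class II genes, each beside its class I counterpart, with the mean ± SD over 4 pairs. NLRC5 lies above CIITA, B2M above CD74 and TAPBP above HLA-DMA in every pair.

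HLA-DMA lies in the class II region of chromosome 6. A list of 23 neighbours was made that left out class II genes, and 21 of them had a row (32194843 to 33409924). Of these 6 were called higher, 4 lower and 11 not called (background 9.52% higher and 17.5% lower), with a median log2 fold change of -0.09. The calls upward included the peptide transporter genes TAP1 (7.80, SE 0.28) and TAP2 (5.73, SE 0.17) and the immunoproteasome genes PSMB8 (4.83, SE 0.21) and PSMB9 (7.94, SE 0.35, and down to 6.31 under other settings), which serve class I. BRD2, whose exons overlap those of HLA-DMA on the opposite strand, had 324 CPM ± 21.6 in control and 317 CPM ± 22.1 in cytokine libraries (SD, n = 4). Its log2 fold change was -0.03 (SE 0.11) and turned sign under TMM scaling. RPS18 was not called (-0.50, SE 0.33).

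T-cell activation by an antigen-presenting cell also needs co-stimulatory and adhesion molecules. Of 12 genes for them 5 had a row, of which 2 were called higher and 0 lower (background 9.52% higher and 17.5% lower), and the B7 genes CD80 and CD86 and the receptor gene CD40 were not analysed here. ICAM1, the ligand of LFA-1, rose by 8.75 on the log2 scale (SE 0.40), from 0.192, 0.317, 0.0199 and 0 CPM in control libraries A to D to 91.1, 83.0, 83.7 and 79.9 CPM. It too was above 0.5 CPM in 0 control and 4 cytokine libraries, and no p is given. ICAM1 is among the 2 called higher, so that count is a description. CD274, which encodes the inhibitory ligand PD-L1, rose by 7.45 (SE 0.39, limma adjusted p = 2.2e-07). Their fitted changes depend on the pseudocount, with lowest values of 6.25 for ICAM1 and 6.13 for CD274. CD58 (-0.10, SE 0.35), LGALS9 (0.13, SE 0.25) and the ICOS ligand ICOSLG (-0.35, SE 0.30) were not called.

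The levels of CD74 and HLA-DMA also differed between the name series. In a fit with condition and series, chosen after seeing the data, CD74 was lower in series 22 than in series 21 by -0.71 on the log2 scale (SE 0.09, limma adjusted p = 0.00021). HLA-DMA was lower by -1.05 (SE 0.26, limma adjusted p = 0.0069). These were 2 of the 6 class II genes, and 20.7% of all genes were called in this comparison, in either direction. They included 3 of the 11 beta-cell markers and 4 of the 7 markers of other pancreatic cells, whose part in these differences was not tested. CIITA (-0.39, SE 0.24, limma adjusted p = 0.22) and RFX5 (0.21, SE 0.09, limma adjusted p = 0.068) were not called. RFXAP was higher by 0.45 (SE 0.17, limma adjusted p = 0.047), inside the fold threshold. CIITA, CD74 and HLA-DMA had the same order of cytokine libraries, C, D, B and A from low to high, and CD74 and HLA-DMA had this order in control libraries as well. For the response to cytokines itself, 0 of the 6 class II genes differed between series in a limma interaction test (adjusted p = 0.999 for each), with 0 of 6 at an unadjusted p under 0.05. Of all genes 0.0303% were called in that test. The log2 fold change of CD74 was 2.98 within series 21 and 3.13 within series 22. For CIITA these values were 5.06 and 4.32, and for HLA-DMA 1.70 and 1.24, so the 3 genes rose within each series, each of which holds only 2 libraries a condition.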

How the data were processed

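The authors sequenced stranded mRNA libraries (paired-end, 100 bp), aligned the reads to GRCh38 with TopHat 2.1.1, counted them on Ensembl release 107 genes with HTSeq 0.9.1 at default settings, and deposited CPM values for genes above 0.5 CPM in at least 4 samples. HLA genes are polymorphic and have close paralogs, so alignment to 1 reference haplotype can lower their counts, which was not tested. Another 4 columns of values in the table were not used. All values in the 8 libraries (100%) matched whole reads within 0.1 read, which gave read numbers; 1 read was 0.0196 to 0.0214 CPM, and the floor of 3 reads was 0.0587 to 0.0641 CPM. Floors and counting intervals cover counting error only. Groups came from the sample titles.

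The deposited CPM values of 4 control and 4 cytokine libraries were log2-transformed after adding 0.1 and tested in R 4.3.3 with limma 3.58.1 (trend on, no block), followed by Benjamini-Hochberg adjustment over 16525 genes. TPM used exon lengths of GENCODE 29, which 16167 genes had. Shares of the HLA-DR, HLA-DP and HLA-DQ isotypes had been planned and were not computed. Alternatives were TMM and median-of-ratios scaling, pseudocounts of 0.5 and 1, a filter at a mean of 1 CPM, no trend, edgeR 4.0.16 with and without TMM, DESeq2 1.42.0 (both on recovered reads), a block of name pairs and each library left out. A series term, fits within series and edgeR with the block were chosen after seeing the data. The same-letter libraries paired by name: the correlation of their deviations from the group means was 0.57 for A, 0.59 for B, 0.80 for C and 0.74 for D, although A and B were not told apart (0.57 and 0.59 across). The mean chi-square per gene between read numbers of libraries A and B was 13.3 in control and 5.89 in cytokine libraries. Between other libraries of a condition it was 66.6 to 294 in control and 84.6 to 252 in cytokine libraries. Scripts were tested on simulated data. Named genes are the 6 class II genes; of each list, the 4 called genes of largest fold change and the 2 of highest CPM that were not called; and the 5 genes nearest to CD74 and to CIITA. IFNGR1, IFNGR2, LGMN, SPPL2A, CTSF, CD58, B2M and TAPBP were named after their values were seen. A gene that this rule covers is not reported here. The class II genes and all lists were chosen with earlier results of these data known. Python 3.11.15 was used with scipy 1.17.1, numpy 2.4.6, pandas 2.3.3 and matplotlib 3.10.9.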

Additional observations from a re-analysis of the deposited data

Results flagged for a closer look

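Among 38 genes (the class II genes and the named genes of the lists) in 2 groups each, 3 of 76 groups of 4 libraries had 1 library far from the others, and chance sets apart about 1 group in 20. For RFXAP the gap took 0.868 of the range among cytokine libraries, with library D at 6.51 CPM and the others at 5.32 to 5.48 CPM. For SOCS1 it took 0.838 of the range among control libraries, with library B at 1.69 CPM and the others at 0.956 to 1.08 CPM. For HLA-F it took 0.844 of the range among cytokine libraries, with library D at 149 CPM and the others at 118 to 122 CPM.

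The log2 fold change of ICOSLG had opposite signs in the series: -1.0002 in pair A and -1.34 in pair B, against 0.55 in pair C and 0.37 in pair D. The interaction was 1.63 on the log2 scale and did not pass the limma test (adjusted p = 0.37).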

How the results depend on the processing

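CIITA and CD74 were called higher under all 20 alternatives, with log2 fold changes from 3.13 to 5.29 for CIITA and from 2.92 to 3.22 for CD74. All alternatives used the same filtered genes, so they cannot show whether CIITA was listed only through treated cells. HLA-DMA was called under 17 of 20 and ranged from 0.92 to 1.80. Leaving out single libraries gave 1.19 to 1.80 for HLA-DMA, and the call was lost without control library C or cytokine libraries A or B. RFX5, RFXAP and RFXANK were not called under any of the 20, with ranges of 0.15 to 0.38, -0.41 to -0.05 and -0.44 to -0.19. With the replicate block of name pairs the limma log2 fold changes stayed the same by construction and the adjusted p was 5.96e-15 for CD74 and 3.24e-05 for HLA-DMA. It was 0.0054 for RFXANK (0.072 without the block) and 0.014 for RFX5 (0.21 without), so only the fold threshold kept these 2 from being called. In edgeR with TMM the block gave log2 fold changes of 3.21 for CD74, 5.23 for CIITA and 1.74 for HLA-DMA. The pairing changed no call of a class II gene.

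TMM scaling, median-of-ratios scaling, edgeR with TMM, DESeq2 and edgeR with TMM and the block each gave 1 processing gene called lower in place of 2. Without the intensity trend 1 gene of the enhanceosome list was called higher in place of 3, and leaving out single libraries gave 1 to 3. The RFX5 to CIITA level without division by length was 6.0 in place of 27.2. The cause of these changes was not tested.

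Some genes that were not called changed sign. CST3 (-0.10) went to 0.054 with TMM scaling, 0.064 with median-of-ratios scaling, 0.020 with edgeR with TMM, 0.029 with DESeq2 and 0.054 with edgeR and the block, and ranged from -0.31 to 0.073 with single libraries left out. In the same order of settings USF2 went to 0.0039, 0.014, 0.0041, 0.015 and 0.0042, and BRD2 to 0.12, 0.13, 0.12, 0.13 and 0.12. With single libraries left out BRD2 ranged from -0.076 to 0.0087 and JAK1 from -0.0092 to 0.18. The difference of the RFXANK response between series went to 0.063 with TMM scaling. Control reads of CIITA and HLA-DMA, 61 and 161 in all, limit the precision of their fold changes.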
